A study of Mus musculus with 72 samples.

Results

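Hpgd and 9 further genes of prostaglandin and leukotriene metabolism were followed through 9 RNA-seq and 9 ATAC-seq libraries of RAW264.7, a macrophage-like line from a BALB/c mouse. The genes were chosen by name: Pla2g4a, Ptgs1, Ptgs2, Ptges, Tbxas1, Hpgd, Ptger2, Ptger4, Alox5 and Alox5ap, which are 10 of the 25124 genes in the RNA table. To these were added the 74 of 51984 ATAC peaks whose nearest annotated gene was one of them, and all 19 peaks on chromosome 8 from 54 to 57 Mb, around Hpgd. Hpgd was selected on its RNA level in the SMRT knockdown, so RNA values of the 10 genes that involve this knockdown are given below as a description with no test. Tests of RNA in this knockdown are given only for other genes. All cells were untreated, grown in DMEM with 10% FBS, and carried a lentiviral short hairpin RNA against GFP (shGFP, the control), NCOR (shNCOR) or SMRT (shSMRT), with 3 libraries per group in each assay. NCOR and SMRT are related corepressors that join histone deacetylases to nuclear receptors and other transcription factors. The labels name no clone and tie no library to a culture of its own, so each p-value speaks only of the scatter among these libraries, part of which may be technical. Each hairpin stands for 1 infected population, and loss of its target cannot be told apart from any other difference between the populations. The labels' ATAC protocol speaks of wild-type cells, but each ATAC title carries a hairpin name, and groups were set by title.

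Prostaglandins and leukotrienes are lipid signals made on demand from arachidonic acid, which cytosolic phospholipase A2 (Pla2g4a) frees from membranes. The cyclooxygenases (Ptgs1 and Ptgs2) turn it into prostaglandin H2, from which terminal synthases make prostaglandin E2 (Ptges) or thromboxane (Tbxas1), while 5-lipoxygenase (Alox5) with its activating protein (Alox5ap) starts the leukotriene branch. Macrophages sense prostaglandin E2 through the receptors EP2 (Ptger2) and EP4 (Ptger4), and 15-hydroxyprostaglandin dehydrogenase (Hpgd) ends the signal by oxidising prostaglandins.

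RNA libraries held 39.1 to 49.1 M reads and ATAC libraries 6.06 to 10.8 M. Ncor1, the gene targeted in shNCOR, was at 18.4, 20.2 and 18.7 RPKM (reads per kilobase of exon per M reads) in shGFP and at 3.61, 4.20 and 4.30 in shNCOR. Of the macrophage markers, all 8 were expressed in every group, led by Lyz2 and Cd14. Mast cell, neutrophil, lymphocyte and stromal marker lists each summed to under 1 RPKM in every library, with the defining markers Cpa3, Ly6g, Cd3g and Col3a1 at 0. Osteoclast markers summed to 25.8 to 27.4 RPKM in shGFP, 49.8 to 52.8 in shNCOR and 134.9 to 143.8 in shSMRT. Of those 8 markers, 6 passed the filter on low values and all 6 were higher in shSMRT, where 24.4% of all tested genes were. Calcr and Oscar were at or near 0 in every group. In shNCOR 4 of the 6 were higher and 1, Ocstamp, was lower, where 17.6% and 20.0% of all tested genes were. Dcstamp, at 17.5 RPKM in shGFP and 16.7 in shNCOR, was not called there. The counts of higher osteoclast markers include Mmp9, at a mean of 0.08 RPKM in shGFP, 1.86 in shNCOR and 3.31 in shSMRT. Mmp9 passed the filter through the knockdown libraries alone, so its place in these counts is no test. Of the macrophage markers, 7 were higher and 1 lower in shSMRT, where 24.4% and 31.4% of all tested genes were. The megakaryocyte and platelet list summed to 0.304 to 0.912 RPKM in shGFP, 0.481 to 1.41 in shNCOR and 4.36 to 4.99 in shSMRT, on average most of it Pf4, with Ppbp and Gp9 at 0. The part of these shifts in the results below was not tested.

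Hpgd was the gene of the group with the largest difference in RNA. It was at 0.689, 0.508 and 0.700 RPKM in shGFP, at 1.01, 1.04 and 0.637 in shNCOR and at 62.5, 58.9 and 61.2 in shSMRT. Every shSMRT library lay far above the other 6, whose values overlapped between shGFP and shNCOR. The mean of shSMRT, 60.9 ± 1.84 RPKM (SD, n = 3), was 96.3 times that of shGFP (0.632 ± 0.108) and 67.8 times that of shNCOR (0.898 ± 0.227). These levels rested on 132 reads over the 3 shGFP libraries, 207 in shNCOR and 13218 in shSMRT. On the scale used for all fold changes here, log2 of RPKM plus 1, the difference was 5.25 ± 0.09 (SE) from shGFP. That scale understates the change of low genes. In bulk RNA, more cells that express Hpgd and more Hpgd RNA per cell cannot be told apart.

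The comparison of shNCOR with shGFP did not enter the choice of the genes and was tested. Hpgd differed by 0.21 ± 0.09 (limma, adjusted p = 0.0753, n = 3 per group), short of the threshold of 0.05. Without shNCOR replicate 3, the library with the lowest value of its group, the difference was 0.32 and passed (limma, adjusted p = 0.00491). Hpgd entered the tested genes through shSMRT alone, since the filter kept genes with 3 or more of the 9 libraries at 1 RPKM or above.

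**Figure D1:**
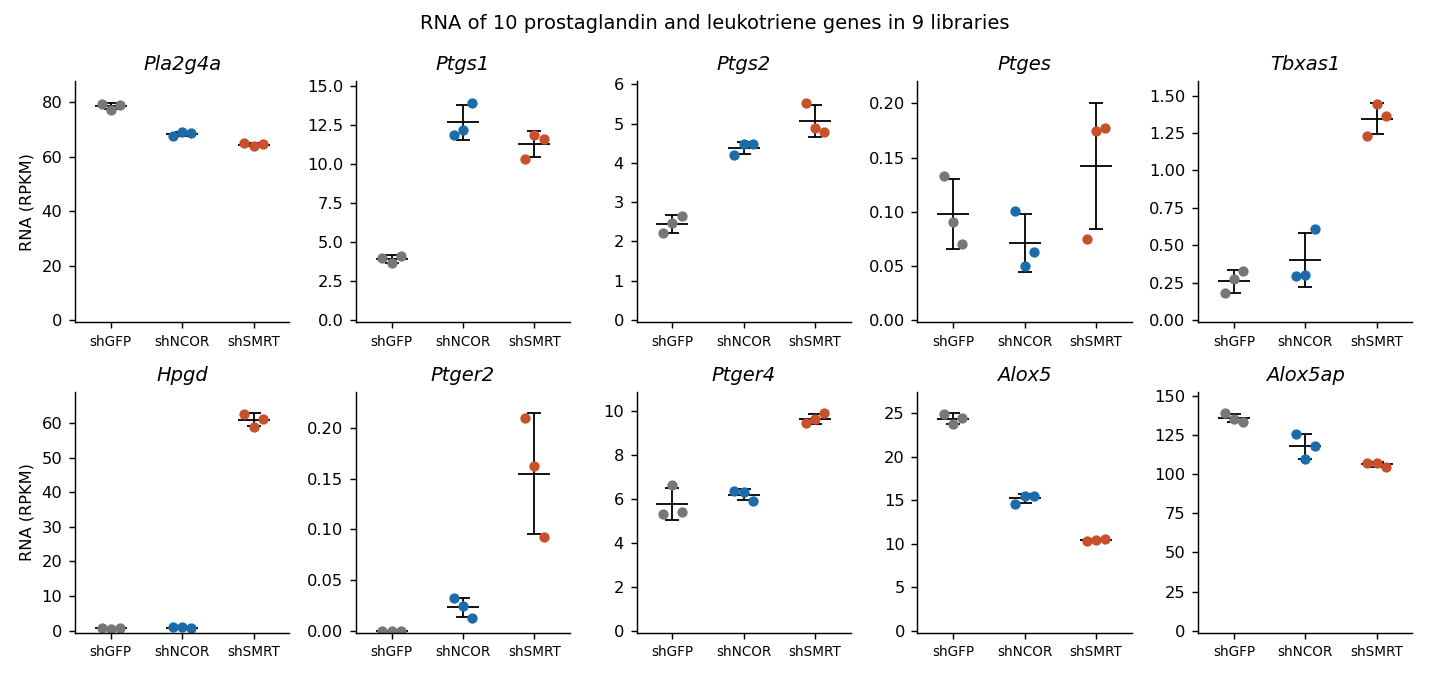
RNA level in RPKM (vertical axes, linear, a separate scale for each gene) of the 10 genes in the 3 libraries of shGFP, shNCOR and shSMRT. Points are libraries, long ticks are means and bars are SD. Hpgd stands at about 60.9 RPKM in shSMRT against under 1.1 in every other library, Ptgs1 and Ptgs2 are higher in both knockdowns, and Alox5 steps down from shGFP to shNCOR to shSMRT.

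Chromatin at Hpgd was read from ATAC-seq, which marks open DNA by where a transposase can cut. A value is the number of reads in a peak for every 10 M reads of its library. Hpgd lies on the plus strand at chr8:56294552-56321046 (mm10). None of the 19 peaks of the region overlapped the 250 bases before its start site. These bases, from RefSeq (GRCm38.p6, the same assembly as mm10; chr8:56294302-56294551, plus strand, 56.8% G and C), are shown because the gene with the largest RNA difference had no listed peak there:

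Hpgd promoter: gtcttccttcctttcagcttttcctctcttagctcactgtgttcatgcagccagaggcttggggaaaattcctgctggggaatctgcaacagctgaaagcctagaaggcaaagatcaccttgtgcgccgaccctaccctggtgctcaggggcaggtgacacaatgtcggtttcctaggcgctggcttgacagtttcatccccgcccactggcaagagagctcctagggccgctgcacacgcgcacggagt

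They were searched on both strands for TGANTCA (the AP-1 site), GAGGAAGT (PU.1), AGGTCA (the core hexamer of nuclear receptor sites), TTGCNNAA (C/EBP) and TATAAA (the TATA box), and none of these letters occurred, so the sequence has no capitals. In the same window, 6.75%, 2.44%, 14.0%, 9.56% and 12.4% of the 32851 RefSeq promoters held a match to these motifs in turn. A match or its absence is a description of these letters and not of a factor's binding.

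The peaks annotated to Hpgd stood away from its start site. At 9.4 kb upstream (chr8:56284990-56285329, intergenic) accessibility was 2.24, 0 and 9.22 in shGFP, 7.92, 6.60 and 10.2 in shNCOR and 39.4, 42.0 and 69.3 in shSMRT. The shSMRT libraries did not overlap the others, and the differences on the log2(value + 5) scale were 2.75 ± 0.40 from shGFP and 2.03 ± 0.40 from shNCOR. This peak had been called in the 3 shSMRT libraries and in no other. It entered the peak list and passed the filter through shSMRT alone and had to differ, so these values are a description with no test. The file places it in RMER15, a long terminal repeat of the ERVL family of old retroviral insertions, and long terminal repeats held 7.99% of the 51983 usable peaks.

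At 16.1 kb upstream (chr8:56278220-56278610, intergenic) the values were 15.7, 6.56 and 11.1 in shGFP, 5.28, 19.8 and 3.81 in shNCOR and 43.2, 47.6 and 43.9 in shSMRT. Again the shSMRT libraries lay above all others, with a rise of 1.67 ± 0.38 against shGFP (limma, adjusted p = 0.00117) and 1.93 ± 0.38 against shNCOR (adjusted p = 0.000176). This peak had been called in 0 shGFP, 1 shNCOR and 2 shSMRT libraries. These values rested on few reads, from 3 to 46 per library at this peak and from 0 to 49 at the first. The third peak, in intron 3 at 5.05 kb past the start (chr8:56299490-56299722), had values of 28.0, 19.7 and 31.4 in shGFP, 21.1, 28.1 and 31.7 in shNCOR and 43.2, 48.8 and 41.0 in shSMRT. Its groups did not overlap between shSMRT and shGFP either, but the difference of 0.67 ± 0.27 missed the threshold (adjusted p = 0.0812). None of these 3 peaks was called between shNCOR and shGFP, where the differences were -0.26 ± 0.38 at -16.1 kb, 0.71 ± 0.40 at -9.4 kb and 0.03 ± 0.27 at 5.05 kb.

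A pair of peaks downstream of Hpgd, which the file assigns to the unexpressed gene 4930518J21Rik, was also higher in shSMRT. The peak 145.1 kb from the Hpgd start (chr8:56439514-56439758) was at 21.3, 30.9 and 33.2 in shGFP, 40.9, 42.9 and 53.3 in shNCOR and 75.1, 118 and 99.0 in shSMRT. It rose by 1.61 ± 0.22 against shGFP (adjusted p = 4.42e-07) and by 1.00 ± 0.22 against shNCOR (adjusted p = 0.000788). The peak at 117.6 kb (chr8:56412097-56412292) differed by 1.19 ± 0.43 from shGFP (adjusted p = 0.0479) and by 2.01 ± 0.43 from shNCOR (adjusted p = 0.000585), but its call against shGFP ended under 7 of 16 alternatives, among them leaving out any 1 of the shGFP or shSMRT libraries. From 256.9 kb on, the promoter peak of Fbxo8 and a peak beyond it were called in neither knockdown against shGFP.

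**Figure D2:**
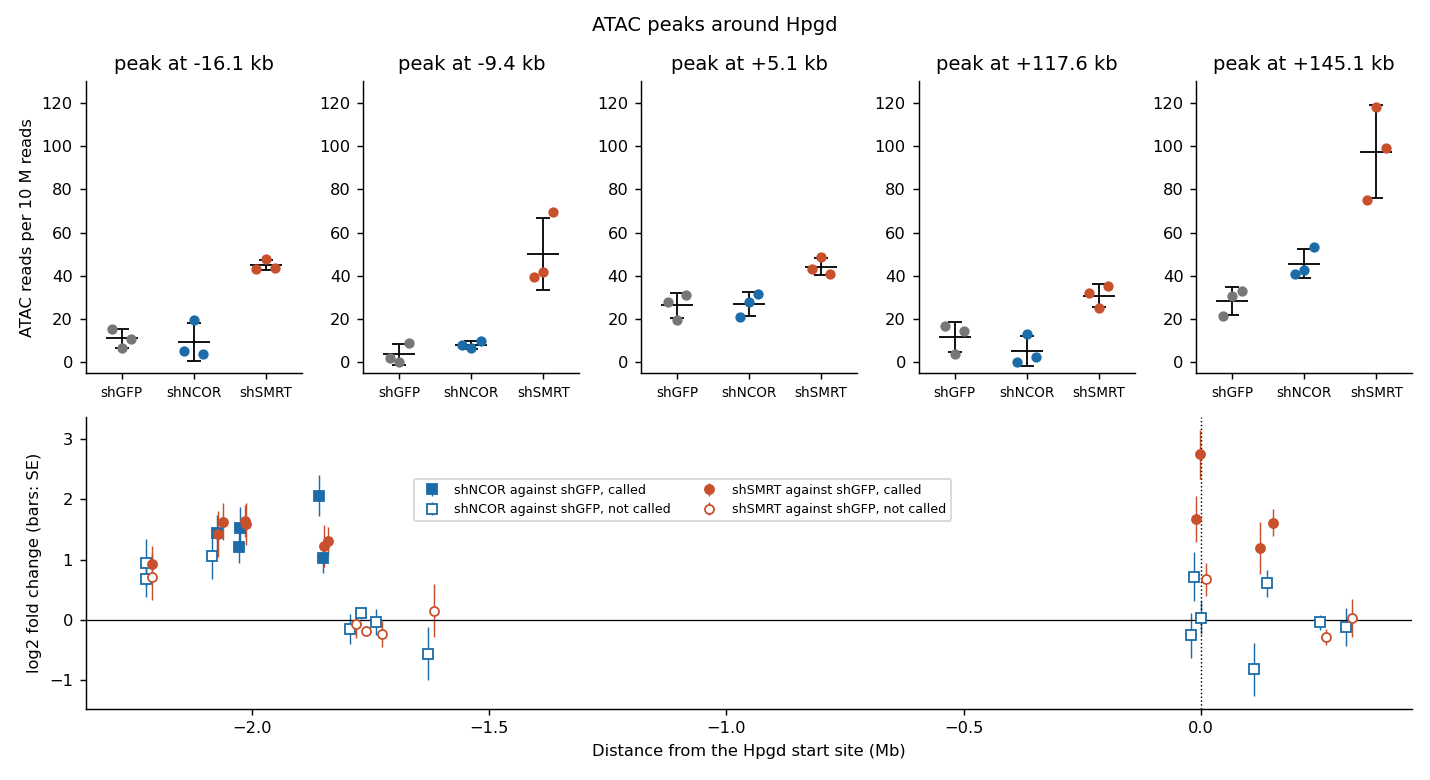
Upper row: accessibility (reads per 10 M reads, linear axis) of the 5 peaks nearest Hpgd, titled by distance from its start site, in each library, with means (ticks) and SD (bars). Lower panel: log2 fold change against shGFP (SE bars) of all 19 peaks on chromosome 8 from 54 to 57 Mb by distance from the Hpgd start. Filled symbols passed an adjusted p of 0.05, which is no test for the peak at -9.4 kb. At left, 5 peaks are filled above 0 in both knockdowns, and others in shSMRT alone or in neither. Near 0, the peaks at -16.1 and -9.4 kb are filled in shSMRT and the peak at 5.1 kb is not.

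Over the whole 54 to 57 Mb window, 11 of 19 peaks rose and 0 fell in shSMRT (limma against shGFP), and 5 rose and 0 fell in shNCOR. By voom on recovered reads 0 fell in either, and at an unadjusted p under 0.05 there were 2 lower in shSMRT and 0 in shNCOR. Without shSMRT replicate 3 the count in shSMRT was 8 higher and 1 lower, and it was 8 higher and 0 lower without shGFP replicate 3. Among all tested peaks 6.81% were higher and 10.9% lower in shSMRT, and 4.58% higher and 4.00% lower in shNCOR. The window was set around a gene chosen for its shSMRT level, and its counts include the peak at -9.4 kb, which had to differ. Near Hpgd, 4 peaks were higher in shSMRT than in shNCOR, where 6.93% of all tested peaks were higher and 17.5% lower, and 1 peak of the window, at the Spcs3 promoter, was lower. That lower call ended under quantile normalization, voom and scaling to reads in peaks, and without shNCOR replicate 2 or shSMRT replicate 1. About 2 Mb upstream, 7 peaks annotated to Vegfc or Spcs3 rose in shSMRT and 5 of them also in shNCOR, and none of the 7 was called between the knockdowns. The peak 149.7 kb past the start of Vegfc, a growth factor of lymphatic vessels, rose by 1.44 ± 0.30 in shNCOR (adjusted p = 0.000931) and by 1.63 ± 0.30 in shSMRT (adjusted p = 9.5e-05).

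Of 12 genes that start in the window, 6 were at 0 in all 9 libraries, and 5 passed the filter, Hpgd included. Vegfc was at 0.178 ± 0.0835 RPKM in shGFP, 3.30 ± 0.199 in shNCOR and 3.67 ± 0.380 in shSMRT, so that it rose in both knockdowns (1.87 ± 0.09, adjusted p = 3.05e-08, and 1.98 ± 0.09, adjusted p = 1.43e-08). It passed the filter through the knockdown libraries alone, which limits what these p-values can show. Spcs3, at 81.9 ± 1.09 RPKM in shGFP, differed by 0.09 ± 0.03 in shNCOR (limma, adjusted p = 0.0216) and by -0.16 ± 0.03 in shSMRT (adjusted p = 0.000409). The first call ended without shGFP replicate 2 or 3 or shNCOR replicate 2, and the second under quantile normalization. The nearest expressed neighbours of Hpgd, Cep44 and Fbxo8, were at 11.8 ± 0.946 and 6.51 ± 0.387 RPKM in shGFP. Both fell in shNCOR, Cep44 by 0.34 ± 0.08 (limma, adjusted p = 0.00562) and Fbxo8 by 0.22 ± 0.06 (adjusted p = 0.0171, ended without shGFP replicate 3 or shNCOR replicate 2). Their differences in shSMRT were -0.23 ± 0.08 (adjusted p = 0.0259) and -0.05 ± 0.06 (adjusted p = 0.543). The call on Cep44 ended without shGFP replicate 2 or 3, without shSMRT replicate 1 or 2, and with no filter on low values.

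The 5 genes whose 9-library profile was most like that of Hpgd were Tnc, Myo1d, Csf1, Rasal1 and Zcwpw1. Likeness was the cosine between profiles of log2(RPKM + 1) centred on the shGFP mean, over 9 libraries and 315 other genes with a group mean at least 1 from shGFP, and it reached 0.9991 for Tnc, 0.9986 for Myo1d, 0.9971 for Csf1 and 0.997 for Rasal1 and Zcwpw1. Tnc, a matrix glycoprotein gene, was at 0.0383 ± 0.0310 RPKM in shGFP, 0.106 ± 0.0385 in shNCOR and 7.23 ± 0.385 in shSMRT. Csf1, the growth factor of macrophages, was at 0.221 ± 0.101, 0.216 ± 0.0450 and 5.38 ± 0.536 RPKM. Myo1d, an unconventional myosin, was at 12.4 ± 0.348, 12.9 ± 0.590 and 33.5 ± 0.986 RPKM. The difference of shSMRT from shGFP was 2.99 ± 0.08 for Tnc, 2.39 ± 0.09 for Csf1 and 1.37 ± 0.04 for Myo1d, against 5.25 for Hpgd. The cosine takes no account of the size of a change. Tnc, Csf1 and Zcwpw1 passed the filter through shSMRT alone, as Hpgd did, so their likeness is a description with no test.

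Of the 10 genes, 8 passed the filter on low values, Hpgd and Tbxas1 through shSMRT alone, and Ptger2 and Ptges did not pass. In shNCOR against shGFP, 2 of the 8 rose (Ptgs1 and Ptgs2) and 3 fell (Pla2g4a, Alox5 and Alox5ap), where 17.6% of all 10789 tested genes rose and 20.0% fell. In shSMRT against shGFP, 5 were higher and 3 lower in the same fit, where 24.4% and 31.4% of all tested genes were. Between shSMRT and shNCOR, 3 were higher and 3 lower, against 22.8% and 29.0%. Nothing is read from the counts that involve shSMRT, because the choice of genes used that group.

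**Figure D3:**
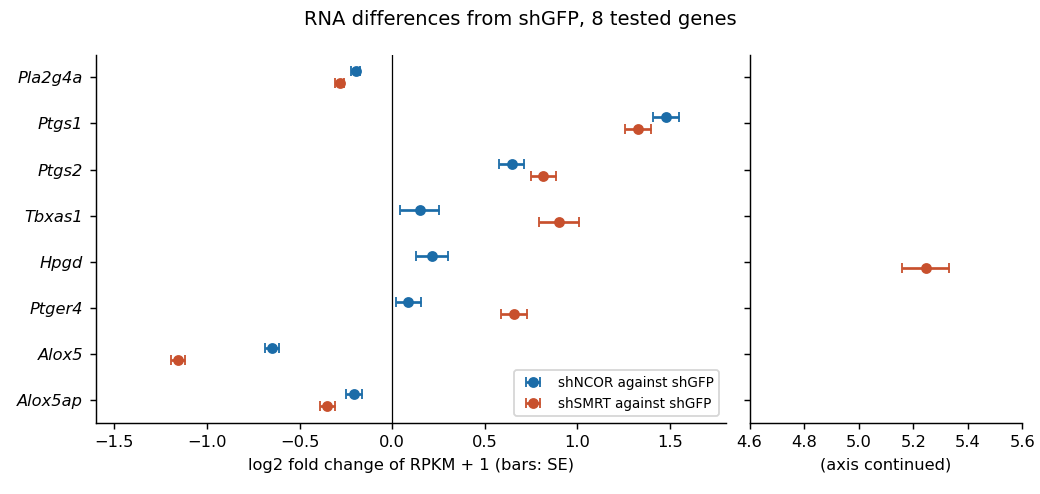
Differences in RNA from shGFP, as log2 fold change of RPKM + 1 (horizontal axis, broken before the shSMRT value of Hpgd, SE bars), for the 8 genes that passed the filter. Ptgs1 and Ptgs2 lie to the right and Pla2g4a, Alox5 and Alox5ap to the left of 0 in both knockdowns, while Hpgd is at 5.25 in shSMRT and 0.21 in shNCOR.

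Pla2g4a, the source of free arachidonic acid, was abundant and slightly lower in both knockdowns. It was at 79.5, 77.3 and 79.2 RPKM in shGFP, 67.5, 69.0 and 68.8 in shNCOR and 64.9, 64.0 and 64.6 in shSMRT, with no overlap between any groups. It fell by 0.20 ± 0.02 in shNCOR (limma, adjusted p = 8.07e-05), and the difference in shSMRT was -0.28 ± 0.02. Of 15 tested ATAC peaks annotated to Pla2g4a, limma called 0 in either knockdown against shGFP. At an unadjusted p under 0.05 there was 1 in shNCOR and 0 in shSMRT, and voom on recovered reads called 0 and 1. Over all tested peaks, limma called 4.58% higher and 4.00% lower in shNCOR, and 6.81% and 10.9% in shSMRT. Between the knockdowns, 1 Pla2g4a peak was higher and 2 were lower in shSMRT, where 6.93% and 17.5% of all tested peaks were. Each of these calls ended under some alternatives. The promoter peak (chr1:149960861-149961744) was at 146.2 to 154.3 in shGFP, 130.4 to 178.9 in shNCOR and 109.9 to 141.5 in shSMRT, where shSMRT lay below shGFP without overlap but the difference of -0.25 ± 0.13 missed the threshold (adjusted p = 0.17).

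Ptgs1, the cyclooxygenase usually described as constitutive, was higher in both knockdowns. Its RNA was at 3.94, 3.63 and 4.11 RPKM in shGFP, 11.9, 12.2 and 13.9 in shNCOR and 10.3, 11.9 and 11.6 in shSMRT. All 6 knockdown libraries lay above all shGFP libraries, and the knockdowns overlapped each other. The means of 12.7 ± 1.11 in shNCOR and 11.3 ± 0.836 in shSMRT were 3.25 and 2.89 times the 3.89 ± 0.245 RPKM of shGFP. The rise in shNCOR was 1.48 ± 0.07 (adjusted p = 4e-08), and the difference in shSMRT was 1.32 ± 0.07.

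Ptgs1 also gained accessibility at its start site. The peak over the start (chr2:36230347-36230731, 5' UTR) was at 50.3, 72.2 and 54.4 in shGFP, 96.4, 124 and 88.8 in shNCOR and 115, 77.1 and 90.5 in shSMRT. Every knockdown library was above every shGFP library. It rose by 0.76 ± 0.17 in shNCOR (adjusted p = 0.00261) and by 0.63 ± 0.17 in shSMRT (adjusted p = 0.00777), though the second call ended without shGFP replicate 1 (adjusted p = 0.065) or shSMRT replicate 1 (0.0984). The 250 bases before this start (chr2:36230176-36230425, plus strand, RefSeq, GRCm38.p6) are shown because the peak that rose in both knockdowns reaches into them:

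Ptgs1 promoter: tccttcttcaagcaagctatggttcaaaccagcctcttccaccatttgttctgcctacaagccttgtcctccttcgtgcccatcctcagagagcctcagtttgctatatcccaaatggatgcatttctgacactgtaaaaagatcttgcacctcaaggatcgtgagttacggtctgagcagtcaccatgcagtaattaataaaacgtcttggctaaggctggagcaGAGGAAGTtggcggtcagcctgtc

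The capitals mark GAGGAAGT, the only match to the 5 motifs above, from 24 to 17 bases before the start site on the plus strand. RefSeq begins the widest Ptgs1 gene model farther upstream, at chr2:36216742-36258593, and a peak over that earlier start, 13.5 kb before the one used in the RNA table (chr2:36216507-36217375), was called in neither knockdown (0.15 ± 0.10 in shNCOR and -0.09 ± 0.10 in shSMRT).

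Of the 8 peaks of Ptgs1, 3 were higher in shNCOR against shGFP and 3 in shSMRT, where 4.58% and 6.81% of all tested peaks were. Together these were 4 different peaks, all of them higher, and the peak over the start was the first. In intron 2, 4.24 kb past the start (chr2:36234548-36234786), the difference was 0.66 ± 0.16 in shNCOR (adjusted p = 0.0058) and 0.41 ± 0.16 in shSMRT (0.0716), and the call in shNCOR ended without shGFP replicate 2 or shNCOR replicate 2. A peak 29.1 kb past the start (chr2:36259316-36259677, intergenic) was at 17.9, 20.6 and 7.38 in shGFP, 10.6, 26.4 and 22.8 in shNCOR and 44.1, 48.8 and 50.9 in shSMRT. It rose by 1.45 ± 0.33 in shSMRT (adjusted p = 0.00118), and by 1.15 ± 0.33 against shNCOR (adjusted p = 0.00739, or 0.0702 without shNCOR replicate 1). The fourth, 42.2 kb past the start (chr2:36272217-36273072), differed by 0.45 ± 0.14 in shNCOR (adjusted p = 0.0378) and by 0.48 ± 0.14 in shSMRT (adjusted p = 0.0164), and these calls ended under 6 and 2 of 16 alternatives.

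Ptgs2, the inducible cyclooxygenase, was low and higher in both knockdowns. It was at 2.21, 2.48 and 2.65 RPKM in shGFP, 4.19, 4.47 and 4.48 in shNCOR and 5.53, 4.88 and 4.80 in shSMRT, with no overlap between groups. The rise in shNCOR was 0.64 ± 0.07 (adjusted p = 2.81e-05) and the difference in shSMRT 0.82 ± 0.07. Its 1 peak, at the promoter (chr1:150099666-150100280), did not pass in either knockdown, at 0.33 ± 0.13 in shNCOR (adjusted p = 0.111) and 0.09 ± 0.13 in shSMRT (0.685). That promoter holds TTGCGCAA, a match to the C/EBP letters, from 69 to 62 bases before the start.

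Ptges, the inducible prostaglandin E synthase, was near 0 in RNA and lost accessibility far upstream. Its RNA was at 0.0700 to 0.133 RPKM in shGFP, 0.050 to 0.101 in shNCOR and 0.0750 to 0.177 in shSMRT, from 35 to 65 reads per group, and the groups overlapped. No peak was listed nearer than 17.0 kb to the start used in the table. The peak 24.1 kb upstream (chr2:30927091-30927671), which lies inside the wider RefSeq gene model (chr2:30889471-30931020), was at 264, 248 and 262 in shGFP, 153, 153 and 134 in shNCOR and 126, 130 and 160 in shSMRT. All knockdown libraries were below all shGFP libraries, and the peak fell by 0.79 ± 0.11 in shNCOR (adjusted p = 2.16e-06) and by 0.88 ± 0.11 in shSMRT (adjusted p = 1.33e-07). Its neighbour 17.0 kb upstream (chr2:30920172-30920485) fell by 1.00 ± 0.28 in shSMRT (adjusted p = 0.00916), a call that ended without shGFP replicate 3 (0.066) or shSMRT replicate 3 (0.09).

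Tbxas1, thromboxane A synthase, was low in all groups and highest in shSMRT. It was at 0.177, 0.273 and 0.325 RPKM in shGFP, 0.291, 0.300 and 0.607 in shNCOR and 1.23, 1.44 and 1.37 in shSMRT. The shSMRT libraries lay above the rest, at a difference of 0.90 ± 0.11 from shGFP, and shNCOR overlapped shGFP (0.15 ± 0.11, adjusted p = 0.313). Of 13 ATAC peaks along the gene, 1 was called against shGFP. Over all tested peaks 4.58% were higher and 4.00% lower in shNCOR, and 6.81% and 10.9% in shSMRT. The called peak lay in an intron 31.5 kb past the Tbxas1 start (chr6:38950397-38950649). Its difference was 0.71 ± 0.22 in shNCOR (adjusted p = 0.029, ended under 5 of 16 alternatives) and 0.06 ± 0.22 in shSMRT. The promoter peak was called in neither (0.43 ± 0.31 and 0.35 ± 0.31).

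The receptor genes differed in level and in chromatin. Ptger4, the EP4 receptor, was at 5.33, 6.64 and 5.40 RPKM in shGFP, 6.38, 6.30 and 5.90 in shNCOR and 9.47, 9.63 and 9.90 in shSMRT. The shSMRT libraries were above all others, by 0.66 ± 0.07 from shGFP. In shNCOR the difference was 0.09 ± 0.07 (adjusted p = 0.355), and it passed without shGFP replicate 2, the highest of its group (adjusted p = 0.0271). Its promoter peak (chr15:5244099-5244871) was at 276.2 to 285.9 in shGFP, 256.1 to 305.7 in shNCOR and 261.8 to 282.6 in shSMRT, a difference of -0.03 ± 0.09 in shSMRT (adjusted p = 0.869). Of 8 peaks limma called 0 against shGFP in either knockdown, with 2 in each at an unadjusted p under 0.05, and voom called 0 in shNCOR and 1 in shSMRT. Over all tested peaks, limma called 4.58% higher and 4.00% lower in shNCOR, and 6.81% and 10.9% in shSMRT. Between the knockdowns, 1 Ptger4 peak was higher in shSMRT, where 6.93% of all tested peaks were, and that call ended under some alternatives.

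Ptger2, the EP2 receptor, was barely detected in RNA, yet peaks beside it opened. It had 0 reads in the 3 shGFP libraries, 12 in shNCOR and 75 in shSMRT, or 0, 0 and 0 RPKM, then 0.0320, 0.0240 and 0.0130, then 0.210, 0.163 and 0.0920. The shSMRT mean of 0.155 RPKM was 23.7 times a floor of 3 reads over the shGFP group. That floor allows for counting error of the 0 in shGFP, and not for error in the 75 reads of shSMRT or for other scatter. The peak 17.9 kb past the start (chr14:45005813-45006288, beyond the 3' end of the gene) was at 42.5, 36.6 and 55.3 in shGFP, 95.0, 89.1 and 108 in shNCOR and 161, 169 and 153 in shSMRT. The 3 groups did not overlap, and the peak rose by 1.05 ± 0.16 in shNCOR (adjusted p = 5.49e-06) and by 1.75 ± 0.16 in shSMRT (adjusted p = 9.32e-12), with a further difference of 0.70 ± 0.16 between the knockdowns (adjusted p = 0.00104). The peak nearest the start, 1.67 kb upstream (chr14:44986311-44986573), rose by 1.50 ± 0.29 in shSMRT (adjusted p = 0.000225) and was at 0.43 ± 0.29 in shNCOR (0.409). The file places both peaks in ERVL long terminal repeats, LTR33 and MLT2B1, as 3 of the 6 peaks of Ptger2 and 9 of the 74 peaks of all 10 genes (12.2%) lay in long terminal repeats, a count made after the values were seen.

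Alox5 and Alox5ap, the leukotriene genes of the group, were lower in both knockdowns. Alox5 was at 24.9, 23.8 and 24.4 RPKM in shGFP, 14.6, 15.5 and 15.4 in shNCOR and 10.3, 10.4 and 10.5 in shSMRT. The groups formed 3 steps with no overlap, the means of shNCOR and shSMRT being 0.623 and 0.426 of that of shGFP. Alox5 fell by 0.65 ± 0.04 in shNCOR (adjusted p = 1.47e-07), and the difference in shSMRT was -1.16 ± 0.04.

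The peak over the Alox5 start (chr6:116461057-116461292) was at 68.2, 73.1 and 95.0 in shGFP, 59.4, 54.5 and 53.3 in shNCOR and 31.9, 52.2 and 55.2 in shSMRT. All knockdown libraries were below all shGFP libraries. The fall in shSMRT was 0.72 ± 0.21 (adjusted p = 0.0104, ended without shGFP replicate 3 at 0.1 or shSMRT replicate 1 at 0.124), and the difference in shNCOR was -0.45 ± 0.21 (0.175). The 250 bases before that start (chr6:116461179-116461428, minus strand, RefSeq, GRCm38.p6) are shown because the peak reaches into them and ran opposite to that of Ptgs1:

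Alox5 promoter: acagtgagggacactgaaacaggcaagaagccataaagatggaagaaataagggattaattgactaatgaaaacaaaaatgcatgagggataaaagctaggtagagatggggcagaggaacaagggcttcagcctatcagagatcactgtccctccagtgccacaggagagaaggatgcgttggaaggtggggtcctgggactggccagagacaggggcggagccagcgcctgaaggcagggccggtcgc

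None of the 5 motifs matched, so no base is in capitals. The strongest peak of Alox5 that moved lay in an intron 43.4 kb past the start (chr6:116417573-116418070), at 259, 267 and 265 in shGFP, 206, 200 and 223 in shNCOR and 179, 192 and 191 in shSMRT. The 3 groups did not overlap. It fell by 0.48 ± 0.10 in shSMRT (adjusted p = 0.00052) and by 0.33 ± 0.10 in shNCOR (adjusted p = 0.0327, ended under 5 of 16 alternatives, each leaving out 1 shGFP or shNCOR library). The peak 1.48 kb upstream of the start (chr6:116462515-116462797) fell by 0.61 ± 0.19 in shSMRT (adjusted p = 0.0194, ended under 5 of 16 alternatives).

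Alox5ap, which presents arachidonic acid to 5-lipoxygenase, was the most abundant of the 10 genes. It was at 139, 135 and 134 RPKM in shGFP, 125, 110 and 118 in shNCOR and 107, 107 and 105 in shSMRT. No groups overlapped, and it fell by 0.21 ± 0.04 in shNCOR (adjusted p = 0.00232), against a difference of -0.35 ± 0.04 in shSMRT. In ATAC, the intron peak 7.73 kb past the start (chr5:149272555-149272914) was at 220, 216 and 249 in shGFP, 191, 175 and 180 in shNCOR and 131, 120 and 100.5 in shSMRT, again in 3 steps. It fell by 0.94 ± 0.12 in shSMRT (adjusted p = 4.5e-08) and was at -0.32 ± 0.12 in shNCOR (0.0802). The promoter peak (chr5:149264856-149265228) fell by 0.44 ± 0.12 in shSMRT (adjusted p = 0.0062, or 0.0509 without shGFP replicate 1) and was 0.54 ± 0.12 lower in shSMRT than in shNCOR (adjusted p = 0.000622), while in shNCOR it was at 0.10 ± 0.12 from shGFP.

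**Figure D4:**
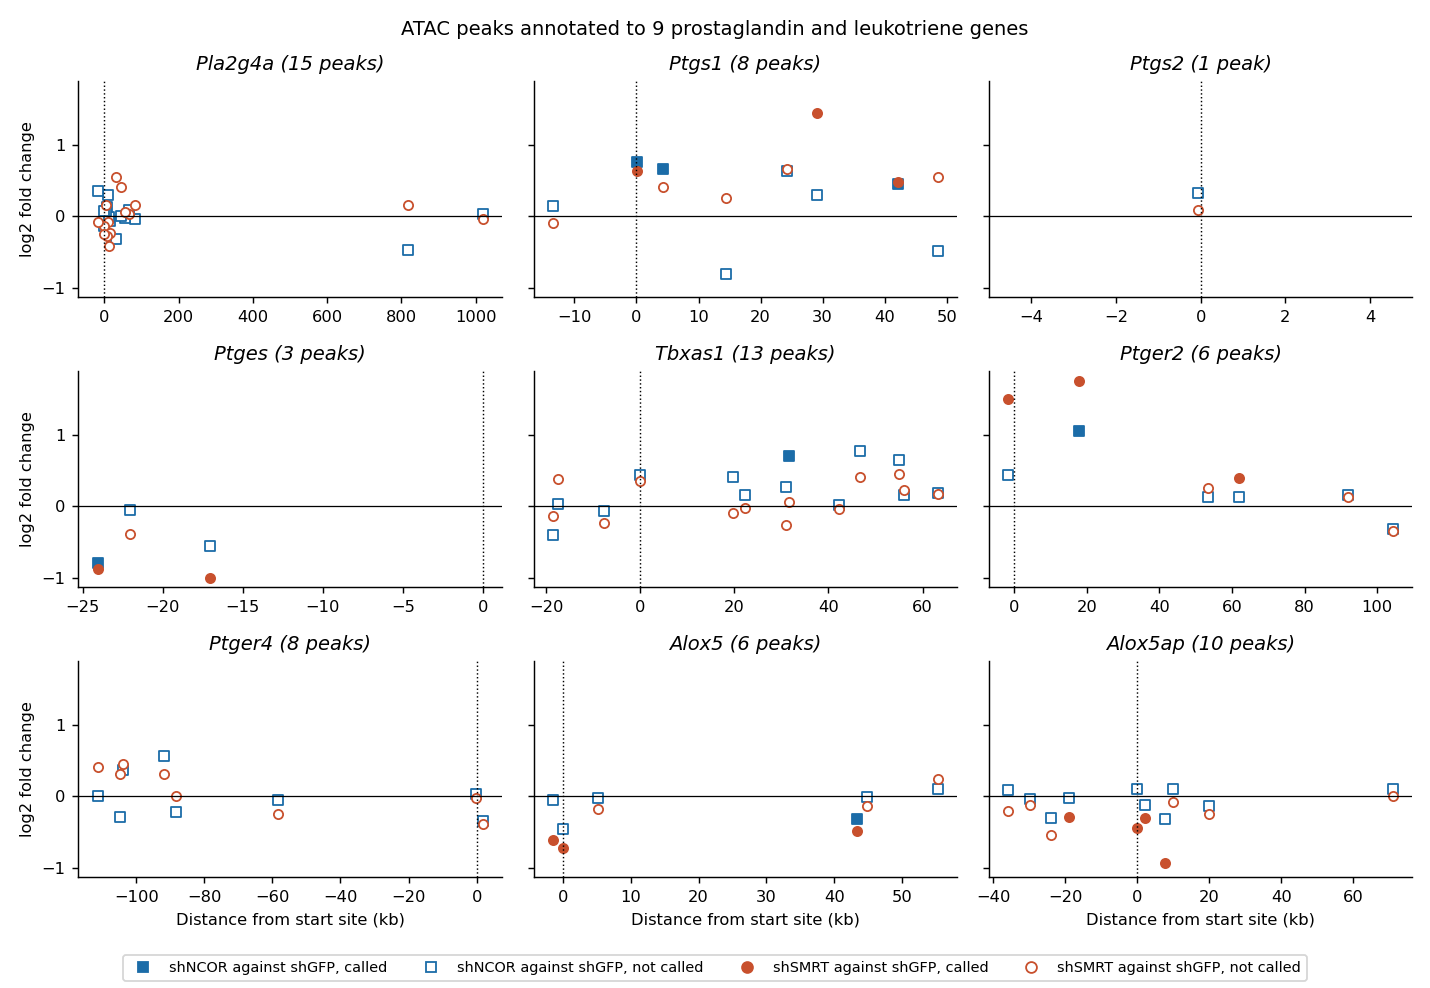
Log2 fold change of accessibility against shGFP (vertical axes, shared) by distance from the start site in kb (horizontal axes, a separate scale for each gene) for the tested ATAC peaks of the 9 genes other than Hpgd. Squares are shNCOR, circles shSMRT, and filled symbols passed an adjusted p of 0.05. Filled points lie above 0 for Ptgs1 and Ptger2 and below 0 for Ptges, Alox5 and Alox5ap.

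In all, 73 of the 74 peaks of the 10 genes were tested. In shNCOR against shGFP 5 were higher and 2 lower (6.85% and 2.74%, against 4.58% and 4.00% of all tested peaks), which is near the background, and 3 were higher and 1 lower without shGFP replicate 2 or 3 or shNCOR replicate 2. In shSMRT against shGFP 8 were higher and 9 lower (11.0% and 12.3%, against 6.81% and 10.9%), and between shSMRT and shNCOR 10 were higher and 10 lower (13.7% each, against 6.93% and 17.5%). The peak of Hpgd at -9.4 kb is among the higher ones. In shSMRT against shGFP the lower count was 5 without shGFP replicate 1 or 3, and between the knockdowns it was 6 without shNCOR replicate 2. Peaks held 50.6 to 54.0% of reads in shGFP, 54.7 to 55.7% in shNCOR and 47.7 to 49.9% in shSMRT. The median log2 fold change over all peaks was 0.048 in shNCOR and -0.092 in shSMRT against shGFP and -0.12 between the knockdowns. Higher calls made up 38.5% of all calls in shSMRT against shGFP, but 56.7% under quantile normalization and 61.9% with scaling to reads in peaks, a setting chosen after seeing the data. For shNCOR against shGFP the shares were 53.4%, 44.9% and 36.2%, and between the knockdowns 28.4%, 59.7% and 66.5%. For the peaks of the 10 genes these settings gave 10 higher and 7 lower, and 10 higher and 6 lower, in shSMRT against shGFP. They gave 4 higher and 3 lower, and 3 higher and 3 lower, in shNCOR against shGFP, and 9 higher and 3 lower, and 12 higher and 2 lower, between the knockdowns.

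Other genes of the pathway were taken from a list of 69, of which 37 passed the filter and 16 were at 0 in every library. In shNCOR 8 rose and 14 fell (21.6% and 37.8%, against 17.6% and 20.0% of all tested genes), at a median log2 fold change of -0.054 (0.0020 over all tested genes). In this comparison 9 rose and 9 fell without shGFP replicate 1, 10 and 10 without shNCOR replicate 2, and 8 and 9 without shNCOR replicate 3. In shSMRT 12 rose and 15 fell (32.4% and 40.5%, against 24.4% and 31.4%), at a median of -0.083 (-0.022 over all). Between the knockdowns 13 were higher and 10 lower in shSMRT (35.1% and 27.0%, against 22.8% and 29.0%). Most roles had genes that rose and genes that fell. The counts include Ptgir, which passed the filter through shGFP alone, and Cyp2s1, which passed through shSMRT alone. Ptgir had to be lower in both knockdowns and Cyp2s1 had to be higher in shSMRT.

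Among 16 tested genes of arachidonate release and storage, 8 fell and 0 rose in shNCOR by limma, with 2 higher at an unadjusted p under 0.05 and 0 by voom, where 20.0% of all tested genes fell and 17.6% rose. The falls numbered 5 without shGFP replicate 1 or 2 or shNCOR replicate 3, and without shNCOR replicate 2 there were 6 falls and 1 rise. In shSMRT 8 fell and 4 rose, where 31.4% and 24.4% of all tested genes did. Abhd6, a monoacylglycerol lipase, stood at 7.13 ± 0.227 RPKM in shGFP and fell to 2.77 ± 0.456 in shNCOR (-1.12 ± 0.10, adjusted p = 8.4e-06) and to 4.90 ± 0.775 in shSMRT (-0.47 ± 0.10, adjusted p = 0.00243). Daglb, a diacylglycerol lipase, fell in shNCOR (19.4 ± 0.509 RPKM) and rose in shSMRT (38.2 ± 0.998), from 23.2 ± 0.841 in shGFP, and the difference of 0.94 ± 0.04 between the knockdowns passed (adjusted p = 6.52e-09). Lpcat3, which places arachidonate in phospholipids, fell by 0.44 ± 0.03 in shSMRT (adjusted p = 1.37e-06).

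Of 5 tested prostanoid synthases, Hpgds, the haematopoietic prostaglandin D synthase, rose in shNCOR (0.24 ± 0.04, adjusted p = 0.000317) and was at 0.03 ± 0.04 in shSMRT. Ptges3, a cochaperone also named cytosolic prostaglandin E synthase, fell in both (-0.47 ± 0.03 and -0.29 ± 0.03). Among 4 tested genes of transport and inactivation, the efflux pump gene Abcc4 fell in both (-0.28 ± 0.04 and -0.33 ± 0.04) and the prostaglandin reductase Ptgr2, which acts after Hpgd, rose in both (0.15 ± 0.04 and 0.25 ± 0.04). The prostaglandin importer Slco2a1, which brings substrate to Hpgd, was at 0 RPKM in all 9 libraries.

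Of the other prostanoid receptors, 3 were tested and 3 were at 0. Ptgir, the prostacyclin receptor, was at 2.39 ± 0.0826 RPKM in shGFP, 0.750 ± 0.101 in shNCOR and 0.824 ± 0.0985 in shSMRT. It passed the filter through shGFP alone and had to differ. Its differences of -0.95 ± 0.08 in shNCOR and -0.90 ± 0.08 in shSMRT are therefore a description with no test. Ptger1, the EP1 receptor, rose in both (0.24 ± 0.05 and 0.38 ± 0.05). In the leukotriene branch, Dpep2, a dipeptidase that converts leukotriene D4, rose from 8.84 ± 0.843 to 19.6 ± 0.805 RPKM in shSMRT (1.07 ± 0.07, adjusted p = 4.09e-07). Mgst2, which can make leukotriene C4, fell there from 35.1 ± 2.57 to 16.3 ± 0.785 RPKM (-1.06 ± 0.06, adjusted p = 2.08e-07). Cysltr1, a cysteinyl leukotriene receptor, fell in shNCOR (-0.61 ± 0.05, adjusted p = 6.07e-06), was at -0.10 ± 0.05 in shSMRT and differed between the knockdowns (0.51 ± 0.05, adjusted p = 1.48e-05). Ephx1, a microsomal epoxide hydrolase, rose from 5.08 ± 0.427 RPKM to 12.1 ± 1.09 in shNCOR (1.11 ± 0.07, adjusted p = 3.39e-07) and 25.1 ± 1.37 in shSMRT (2.10 ± 0.07, adjusted p = 1.93e-09).

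**Figure D5:**
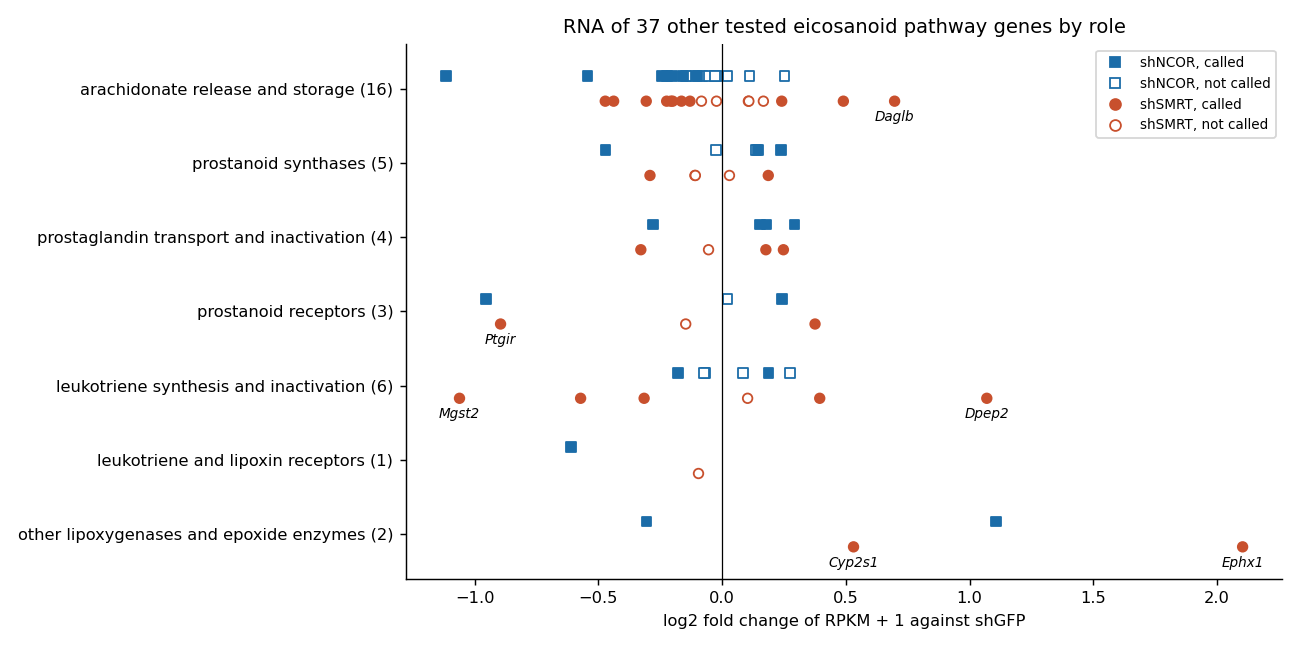
Log2 fold change of RPKM + 1 against shGFP (horizontal axis) of the 37 tested pathway genes outside the 10, in rows by role with the number tested in brackets. Squares are shNCOR, circles shSMRT, and filled symbols passed an adjusted p of 0.05. Ephx1 lies farthest right at 2.10, and Ptgir, Mgst2 and, in shNCOR, Abhd6 lie farthest left. The filled symbols of Ptgir are no test, nor is that of Cyp2s1 in shSMRT.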

How the data were processed

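RNA levels are RPKM values that the authors deposited, with 3 libraries per hairpin; per the file headers HOMER counted exon reads on both strands against mm10, with 1 transcript per gene, so antisense reads are included. ATAC values are the authors' deposited reads per merged peak, scaled to 10 M reads, with peaks and nearest genes per the file headers from HOMER on mm10; decimal commas were read as points and 1 peak with a cell that is not a number was left out. With no roles or versions, the submitters' processing notes list DESeq2, MACS2, HISAT2 and Bowtie2, and as builds mm10 and mm9. No other step is given in the sources used here. Of 72 samples, 18 were used and 54 were not analysed here.

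For each assay, limma (3.58.1, R 4.3.3, trend) was fitted once over its 9 libraries, on log2(RPKM + 1) for the 10789 genes at 1 or more in at least 3 libraries, or log2(value + 5) for the 51469 peaks at 10 or more in at least 3. Benjamini-Hochberg adjusted p-values under 0.05 over all tested features are called. The code was tested on simulated data. The 10 genes, the pathway and marker lists and the region were chosen with earlier results of these data known. The rule for names covered the 10 genes. For each it covered the peak nearest its start and the called peaks with the largest and smallest fold change. It also covered tested genes and all peaks of the chromosome 8 window, and the 5 genes most like Hpgd. Last came, per role and comparison, the called pathway gene with the largest and the smallest fold change. Not all of these have values in the text. Among those without are several peaks and the pathway genes Cbr1, Lpcat1, Ptges2, Ptgr1 and Zadh2. Any other name was chosen after its values were seen.

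Alternatives were the pseudocount (0.1 for RNA, 20 for ATAC), no filter, quantile normalization, a replicate block, the 6 libraries of each comparison alone and leaving out each library, plus 2 chosen after seeing the data, voom on the whole reads recovered from the values and scaling ATAC to reads in peaks. Promoter sequences are from RefSeq (GRCm38.p6), which held 9 of the 10 genes. Libraries held 39.1 to 49.1 M reads (RNA) and 6.06 to 10.8 M (ATAC), and counts under about 50 reads per peak set the precision at Hpgd. The gene targeted in shSMRT is not reported here. Tables were handled with Python 3.11.15, pandas 2.3.3 and numpy 2.4.6, and figures drawn with matplotlib 3.10.9.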

Additional observations from a re-analysis of the deposited data

How the results depend on the processing

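Counts of called genes summed over both directions, in all and among the 10 and the pathway list, stayed within 1.5 times of the reported count in RNA under every alternative run. By direction, the 14 pathway genes that fell in shNCOR numbered 9 to 13 under the alternatives, with 9 without shGFP replicate 1 or shNCOR replicate 3, 10 under quantile normalization and 10 with no filter. In ATAC they moved more. Leaving out each library in turn gave 2544 to 4588 called peaks in shNCOR against shGFP (4414 with all libraries) and 5119 to 10180 in shSMRT against shGFP (9101), with 2544 to 2840 in the former when any 1 shGFP library was left out and the lowest of the latter without shGFP replicate 1. The peaks of the 10 genes called in shNCOR against shGFP numbered 4 to 7 (7 with all libraries), with 4 without shGFP replicate 2 or 3 or shNCOR replicate 2. Between shSMRT and shNCOR, 12564 peaks were called, against 5951 under quantile normalization, 6495 by voom on recovered reads and 7702 scaled to reads in peaks. Of these, peaks of the 10 genes numbered 20, and 12 and 13 under quantile normalization and voom. The sign turned for 3 values: Ptgir RNA between shSMRT and shNCOR went from 0.06 to -0.2344 under quantile normalization (adjusted p = 0.0303), the Alox5ap peak 18.8 kb upstream to 0.0029 there, and Fbxo8 RNA in shSMRT against shGFP ranged from -0.0891 to 0.0018 over left-out libraries. The cause was not tested. The replicate numbers did not pair the libraries: correlations of deviations between same-numbered libraries ran from -0.06 to 0.105 in RNA and from -0.043 to 0.022 in ATAC. With the replicate block 4255, 6156 and 5740 genes were called in shNCOR against shGFP, shSMRT against shGFP and shSMRT against shNCOR, and 4248, 8646 and 12085 peaks, and no call on RNA of the 10 genes changed in shNCOR against shGFP. At the Hpgd peaks, at most 49 reads per library limit how small a difference could be detected.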

Other observations

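Some low pathway genes outside the tests had higher mean levels in both knockdowns. Pla2g7, a secreted phospholipase that degrades platelet-activating factor, was at a mean of 0.0133 RPKM in shGFP, 0.217 in shNCOR and 0.513 in shSMRT. Pla2g2d, a secreted phospholipase A2, was at 0, 0.0137 and 0.382 RPKM, and Faah, which hydrolyses anandamide, at 0.229, 0.627 and 0.746. None of these genes passed the filter on low values, and they were picked after their values were seen.

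A peak 410.2 kb past the Pla2g4a start (chr1:149511997-149512430) had been called in 8 libraries, yet its deposited value was 2.24 in shGFP replicate 1 and 0 in the other 8 libraries, so it was not tested.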
